A study of Mus musculus with 9 samples.

Results

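Sucnr1, Ffar2, Ffar3, Ffar4, Gpbar1 and Gpr35 encode G protein-coupled receptors for metabolites found in the gut lumen, and were taken from the count tables of mouse small intestinal crypts by their gene symbols. All 6 were among the 55341 genes of the tables, and 5 of the 6 were among the 16250 genes that passed the low-count filter. Gpbar1 did not pass it. SUCNR1 binds succinate. FFAR2 and FFAR3 bind short-chain fatty acids such as acetate, propionate and butyrate, and FFAR4 binds long-chain fatty acids. GPBAR1 binds bile acids. GPR35 has been proposed as a receptor for kynurenic acid and other ligands.

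In the small intestine these receptors are known from rare sensory cells of the epithelium. Tuft cells carry SUCNR1 and use it to sense succinate made by microbes and protists, which leads through a taste-like cascade (gustducin, phospholipase C and the TRPM5 channel) to IL-25 release and a type 2 immune response. Enteroendocrine cells, which secrete gut hormones, are known for fatty acid and bile acid receptors, and FFAR3 transcripts are known from both cell types.

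The study deleted Pcgf6, a Polycomb gene whose protein sits in a noncanonical repressive complex, in adult mice and sequenced RNA from isolated crypts with Smart-seq2, a full-length method that does not mark the strand. The mice were male C57BL/6 animals aged 8 to 12 weeks. AhCre KO mice (n = 2 libraries) and AhCre WT mice (n = 2 libraries) were given beta-naphthoflavone (BNF), which induces the Cyp1a1 promoter that drives this Cre. Villin KO mice (n = 2 libraries) and Villin WT mice (n = 3 libraries) carried Villin-CreERT2, a Cre that the Villin promoter expresses in gut epithelial cells. It responds to tamoxifen, the agent in their titles, and another label of the same samples names BNF. KO is the Pcgf6 conditional knockout (cKO in some labels). WT mice of each driver were labelled with the same inducer and interval as the KO mice, and whether they carry a floxed Pcgf6 allele is not stated. The interval after induction is 15 days in the titles and 7 days in another label of all 9 libraries. The labels do not say that the libraries of a group came from separate mice, so p-values measure only the spread between libraries.

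Total counts were 9263993 to 12377921 per library in AhCre and 6455098 to 8339149 in Villin, and 1 count corresponded to 0.0646 to 0.205 CPM, a count scaled to a common library size. The targeted gene had 89 and 68 counts in AhCre KO and 219 and 136 in AhCre WT libraries, and 15 and 16 counts in Villin KO and 60, 99 and 49 in Villin WT libraries. Pcgf6 fell in Villin KO (log2 fold change -1.99, edgeR adjusted p = 0.0220, and 0.0748 without Villin KO 1), and in AhCre KO its log2 fold change of -0.89 was not called (adjusted p = 1). With each driver fitted alone the AhCre value was called (adjusted p = 0.0357) and the Villin value was not (0.136); with limma-voom the adjusted p was 0.0391 in AhCre and 0.214 in Villin, and the replicate block gave 0.0560 in Villin. Villin KO 1 stood apart by its tuft cell markers, whose summed level was 8981 CPM there and 1721 CPM in Villin KO 2. Without it 73 genes were called in Villin, against 1009 with it. Villin WT 1, 2 and 3 also differed from each other, with summed Paneth cell markers at 7790, 2017 and 14515 CPM. Their summed goblet cell markers were at 9860, 3160 and 10218 CPM, and their tuft cell markers spanned 449 to 641 CPM. Epithelial markers such as Epcam and Krt8 were abundant throughout, with a summed level of 6659 to 18758 CPM.

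Sucnr1 and Ffar3 rose in KO crypts in the mean of both drivers and in Villin, while Ffar2, Ffar4 and Gpr35 were not called and Gpbar1 was at the limit of detection. For Sucnr1 and Ffar3 every KO library was above every WT library of its driver, as for 3.42% of all genes tested. In the mean effect of both drivers, 2 of the 5 tested receptors were called at an adjusted p under 0.05 and both were higher, where 1.17% of all genes tested were called, 0.972% higher and 0.197% lower. In Villin the same 2 were called higher, against 6.21% of all genes called, 3.33% higher and 2.88% lower. In AhCre none of the 5 was called, against 0.00615% of all genes (1 gene), and 2 had an unadjusted p under 0.05, as did 3.53% of all genes. This fit shares its estimate of the spread of a gene over both drivers. With AhCre fitted alone 1046 of 16257 genes were called by edgeR, Sucnr1 and Ffar3 among them. For the difference between the drivers' effects none of the 5 was called, against 0.0738% of all genes called, 0.00615% higher in AhCre and 0.0677% lower. None of the 5 had an unadjusted p under 0.05 for that difference, against 15.9% of all genes.

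**Figure D1:**
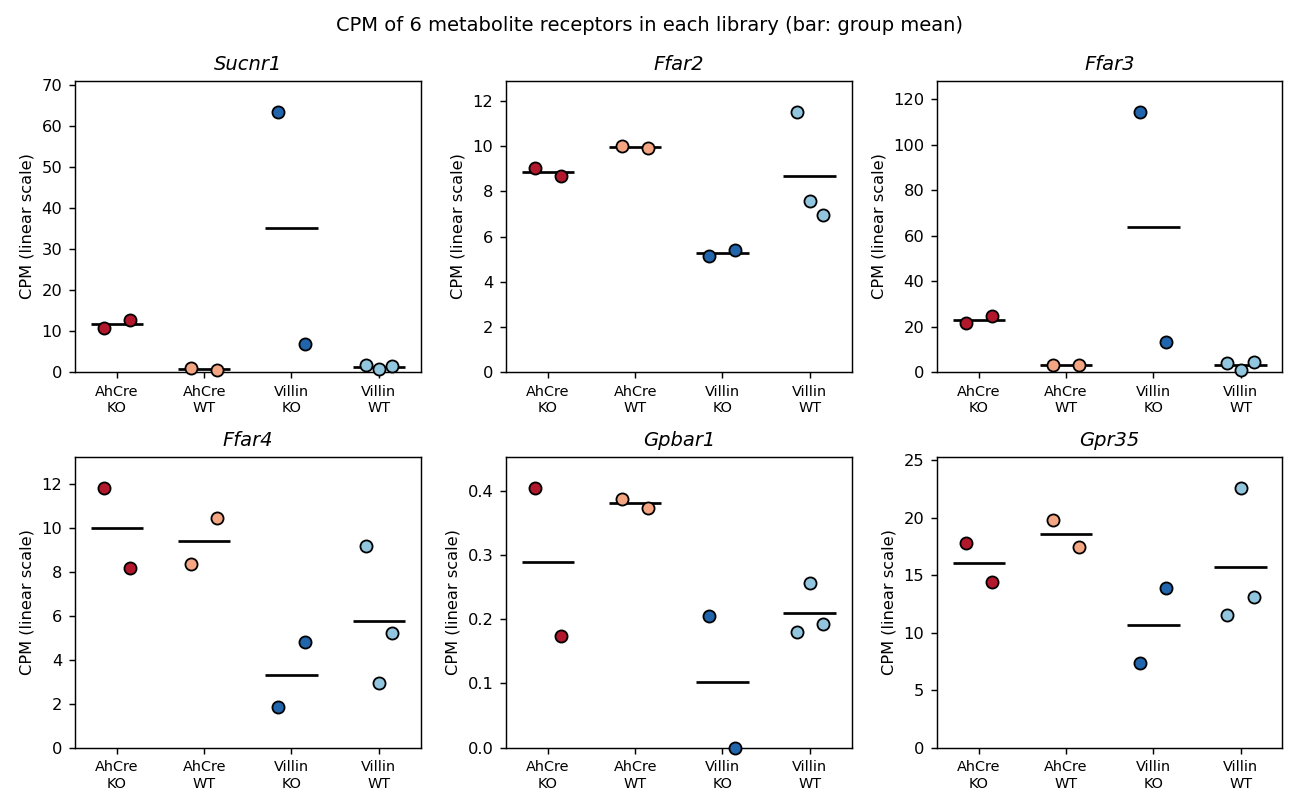
CPM of each receptor in each of the 9 libraries, 1 panel per receptor on its own linear axis, with AhCre KO, AhCre WT, Villin KO and Villin WT from left to right; points are libraries and bars are group means. Sucnr1 and Ffar3 lie higher in every KO library than in any WT library, with Villin KO 1 far above the rest.

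The windows around the annotated starts of the receptors that moved together are shown because these genes share their pattern over the libraries. Each runs from 250 bases before to 50 bases after the start, 5′ to 3′ on the gene's strand, from RefSeq on GRCm38.p6. Sucnr1 is on the plus strand at chr3:60081619-60081918 and Ffar3 on the minus strand at chr7:30856129-30856428. Capitals mark the octamer ATGCAAAT in Sucnr1 and, in Ffar3, TTTGCAT, the reverse complement of the octamer's first 7 letters.
Sucnr1: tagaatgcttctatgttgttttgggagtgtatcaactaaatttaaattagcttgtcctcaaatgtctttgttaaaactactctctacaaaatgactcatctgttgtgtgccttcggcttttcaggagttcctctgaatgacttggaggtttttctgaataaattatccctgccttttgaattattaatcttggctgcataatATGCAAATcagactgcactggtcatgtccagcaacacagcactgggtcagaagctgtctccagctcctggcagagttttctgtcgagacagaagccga
Ffar3: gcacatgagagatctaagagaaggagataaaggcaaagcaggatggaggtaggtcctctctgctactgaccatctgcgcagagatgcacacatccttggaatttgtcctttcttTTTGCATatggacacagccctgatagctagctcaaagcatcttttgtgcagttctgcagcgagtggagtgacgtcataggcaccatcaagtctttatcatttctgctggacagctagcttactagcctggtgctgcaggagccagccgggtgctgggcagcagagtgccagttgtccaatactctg
The octamer is a known motif of POU-domain factors, a class to which the tuft cell regulator POU2F3 belongs. Both strands were searched in all 32851 windows of the table for 4 words chosen after the receptor windows had been seen. The octamer was in 1.74% of windows and its first 7 letters, which every octamer also contains, were in 4.63%. In Sucnr1 the octamer lay at -48 to -41 from the start, and in Ffar3 the 7 letters lay at -136 to -130 without the full octamer. Neither word was in the windows of the other 4 receptors. The E-box CACGTG was in 1 of the 4 Ffar2 windows (7.15% of all windows), and GGCGGGA was in the Ffar4 window (11.3% of all windows). A match describes letters only.

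Sucnr1, the succinate receptor (ENSMUSG00000027762.6, chromosome 3, 60081869 to 60087566, plus strand, GRCm38), had few reads in WT crypts and clearly more in KO crypts. AhCre KO libraries had 134 and 147 counts (10.8 and 12.7 CPM), against 17 and 6 counts (1.10 and 0.447 CPM) in AhCre WT libraries. Villin KO libraries had 309 and 45 counts (63.3 and 6.94 CPM), against 9, 5 and 7 counts (1.62, 0.641 and 1.35 CPM) in Villin WT libraries. Every KO library was above every WT library of both drivers, and Villin KO 1 was the highest of all. Separation in this direction within each driver was shown by 3.42% of all genes tested. The log2 fold change was 4.89 in Villin (SE 0.79, adjusted p = 0.00915) and 3.89 in AhCre (SE 0.87, adjusted p = 0.368, unadjusted p = 0.000715, rank 30 of 16250 by p). The mean of both was 4.39 (SE 0.60, 95% interval 3.09 to 5.69, adjusted p = 0.00614). The AhCre effect minus the Villin effect was -0.998 (95% interval -3.53 to 1.53, adjusted p = 0.701), so a difference between drivers was not shown. Without Villin KO 1 the Villin log2 fold change of Sucnr1 was 2.58 and was no longer called, and the mean was 3.24 and still called. Leaving out Villin WT 1 ended the call in Villin (5.17) and in the mean, and leaving out either AhCre WT library ended it in the mean, with adjusted p up to 0.0712 in Villin and 0.0679 in the mean over the 9 libraries left out in turn. With each driver fitted alone, Sucnr1 was called in AhCre (log2 fold change 3.90, adjusted p = 5.8e-07). The main fit shares its estimate of spread over all 9 libraries. The Villin KO libraries (63.3 and 6.94 CPM) differed far more than the AhCre KO libraries (10.8 and 12.7 CPM). The smaller adjusted p in Villin therefore does not show a steadier rise there.

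Ffar3, a receptor for propionate and butyrate (ENSMUSG00000019429.7, chromosome 7, 30854330 to 30856178, minus strand), showed the same pattern at a higher count. AhCre KO libraries had 268 and 282 counts (21.7 and 24.5 CPM), against 45 and 43 counts (2.91 and 3.21 CPM) in AhCre WT libraries. Villin KO libraries had 558 and 87 counts (114 and 13.4 CPM), against 21, 6 and 22 counts (3.77, 0.770 and 4.24 CPM) in Villin WT libraries. All KO libraries again lay above all WT libraries. The log2 fold change of Ffar3 was 4.49 in Villin (SE 0.77, adjusted p = 0.0115), 2.91 in AhCre (SE 0.83, adjusted p = 0.612, unadjusted p = 0.00404) and 3.70 on average (SE 0.58, 95% interval 2.44 to 4.95, adjusted p = 0.00959). The difference between drivers was -1.57 (95% interval -3.94 to 0.79, adjusted p = 0.497). Without Villin KO 1 the Villin value of Ffar3 was 2.26 and was not called, and the mean was 2.59 and still called. The same WT libraries ended the calls of Ffar3 when left out, with adjusted p up to 0.0948 in Villin and 0.0861 in the mean. With each driver fitted alone, Ffar3 was called in AhCre (log2 fold change 2.93, adjusted p = 1.2e-07).

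Ffar2, the other short-chain fatty acid receptor (ENSMUSG00000051314.11, chromosome 7, 30818348 to 30823775, minus strand), did not follow Ffar3. AhCre KO libraries had 112 and 100 counts (9.05 and 8.67 CPM), against 155 and 133 counts (10.01 and 9.92 CPM) in AhCre WT libraries. Villin KO libraries had 25 and 35 counts (5.12 and 5.40 CPM), against 64, 59 and 36 counts (11.5, 7.57 and 6.94 CPM) in Villin WT libraries. Every KO library lay below every WT library of its driver, a separation that 4.12% of all genes tested showed in this direction, and 3.42% in the direction of Sucnr1 and Ffar3. The mean log2 fold change of Ffar2 was -0.44 (SE 0.28, 95% interval -1.05 to 0.16, adjusted p = 0.521). It was -0.17 in AhCre and -0.72 in Villin, and neither was called.

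Ffar4, the long-chain fatty acid receptor (ENSMUSG00000054200.7, chromosome 19, 38097071 to 38114263, plus strand), overlapped between genotypes in both drivers. It had 146 and 94 counts (11.8 and 8.15 CPM) in AhCre KO, against 129 and 140 counts (8.33 and 10.4 CPM) in AhCre WT libraries. It had 9 and 31 counts (1.84 and 4.78 CPM) in Villin KO, against 51, 23 and 27 counts (9.17, 2.95 and 5.20 CPM) in Villin WT libraries. Villin KO 1, where Sucnr1 and Ffar3 were highest, had the lowest Ffar4 level of all libraries. The mean log2 fold change of Ffar4 was -0.34 (SE 0.39, 95% interval -1.19 to 0.51, adjusted p = 0.772). The AhCre value of 0.09 changed sign when AhCre WT 1 or AhCre KO 1 was left out.

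Gpr35 (ENSMUSG00000026271.15, chromosome 1, 92950865 to 92986391, plus strand) also overlapped between genotypes. It had 220 and 166 counts (17.8 and 14.4 CPM) in AhCre KO, against 306 and 234 counts (19.8 and 17.5 CPM) in AhCre WT libraries. It had 36 and 90 counts (7.38 and 13.9 CPM) in Villin KO, against 64, 176 and 68 counts (11.5, 22.6 and 13.1 CPM) in Villin WT libraries. The mean log2 fold change of Gpr35 was -0.39 (SE 0.29, 95% interval -1.02 to 0.25, adjusted p = 0.615). For Ffar2, Ffar4 and Gpr35 the intervals of the mean leave out a rise of the size seen for Sucnr1 or Ffar3, whose intervals start at 3.09 and 2.44.

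Gpbar1, the bile acid receptor (ENSMUSG00000064272.3, chromosome 1, 74278550 to 74279624, plus strand), had 5 and 2 counts in AhCre KO and 6 and 5 in AhCre WT libraries. It had 1 and 0 counts in Villin KO and 1, 2 and 1 in Villin WT libraries. The ratio of KO to WT was 0.769 in AhCre (exact 95% interval 0.253 to 2.17) and 0.408 in Villin (0.00829 to 4.12); these intervals cover counting error only. A difference in Gpbar1 was not detectable at this depth.

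**Figure D2:**
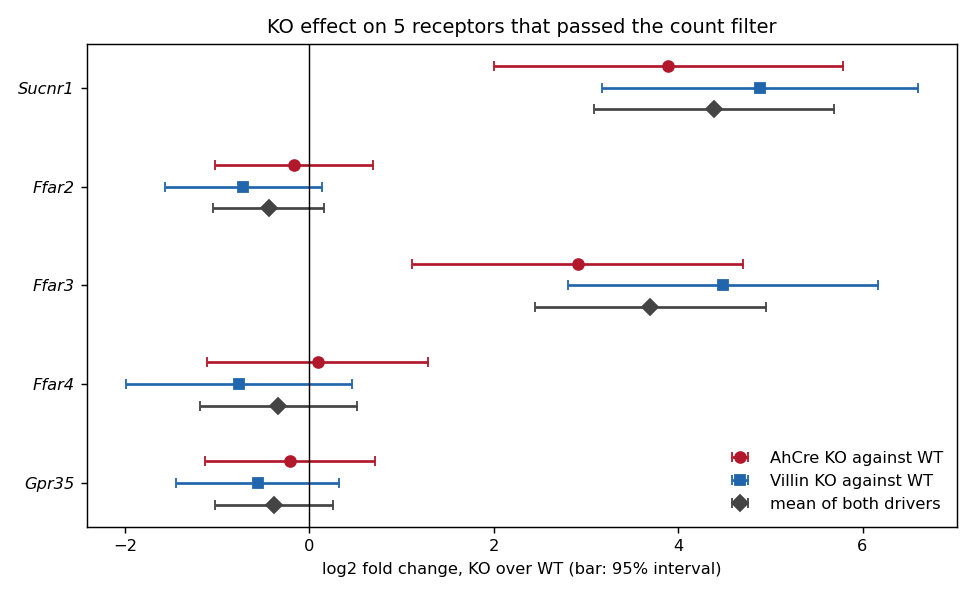
Log2 fold change of KO over WT (x axis) for the 5 tested receptors (y axis) in AhCre, in Villin and in the mean of both drivers, with 95% intervals from edgeR. The mean values of Sucnr1 (4.39) and Ffar3 (3.70) lie to the right of 0 with their intervals, and the intervals of Ffar2, Ffar4 and Gpr35 include 0.

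Reads of these genes were not shared with an overlapping gene: no exon of the 6 receptors overlaps an exon of another gene on either strand in GENCODE M21. Of the 50-base words in their exons, 0.683% in Gpr35 and 0.322% in Ffar2 also occur in other genes, and 0% in the other 4.

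The order of the receptors by level, in CPM per kilobase of exon, differed between KO and WT crypts. In AhCre KO crypts Ffar3 had the highest level at 12.5 ± 1.07 CPM per kilobase (SD, n = 2). Sucnr1 at 7.19 ± 0.826 and Ffar4 at 7.12 ± 1.84 followed and did not differ beyond their spread, nor did Gpr35 at 3.33 ± 0.495 and Ffar2 at 3.18 ± 0.0969. Gpbar1 was lowest at 0.269 ± 0.152. In AhCre WT crypts Ffar4 had the highest level at 6.70 ± 1.07 CPM per kilobase (SD, n = 2). Gpr35 at 3.84 ± 0.337 and Ffar2 at 3.57 ± 0.0229 came next, then Ffar3 at 1.65 ± 0.115. Sucnr1 at 0.471 ± 0.280 and Gpbar1 at 0.354 ± 0.00957 were lowest and did not differ beyond their spread.

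In Villin KO crypts the spread between the 2 libraries was as large as the level itself for the leading receptors, Ffar3 at 34.5 ± 38.6 and Sucnr1 at 21.4 ± 24.3 CPM per kilobase. Ffar4 at 2.36 ± 1.48, Gpr35 at 2.20 ± 0.951 and Ffar2 at 1.89 ± 0.0702 did not differ beyond their spread, and Gpbar1 was at 0.0953 ± 0.135. In Villin WT crypts (SD, n = 3) Ffar4 at 4.12 ± 2.25, Gpr35 at 3.25 ± 1.24 and Ffar2 at 3.11 ± 0.887 overlapped, followed by Ffar3 at 1.58 ± 1.02, Sucnr1 at 0.733 ± 0.307 and Gpbar1 at 0.195 ± 0.0383 CPM per kilobase. By this length both WT groups had the same order of mean levels. With the longest transcript as length Gpr35 and Ffar2 swapped places in Villin WT and not in AhCre WT.

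Ratios between receptors within a library do not depend on the scaling of that library. Per kilobase, Ffar3 over Ffar2 was 3.61 and 4.26 in AhCre KO, against 0.438 and 0.488 in AhCre WT libraries. It was 33.7 and 3.75 in Villin KO, against 0.495, 0.153 and 0.922 in Villin WT libraries. The short-chain fatty acid receptor with the higher level was thus Ffar3 in all 4 KO libraries and Ffar2 in all 5 WT libraries. Ffar3 over Sucnr1 per kilobase was 1.77 and 1.70 in AhCre KO, against 2.35 and 6.36 in AhCre WT libraries. It was 1.60 and 1.71 in Villin KO, against 2.07, 1.06 and 2.79 in Villin WT libraries. Across the 4 KO libraries this ratio spanned 1.60 to 1.77 although the Sucnr1 level itself spanned 6.94 to 63.3 CPM, and the WT ratios, which rest on 5 to 17 Sucnr1 counts a library, were more scattered.

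**Figure D3:**
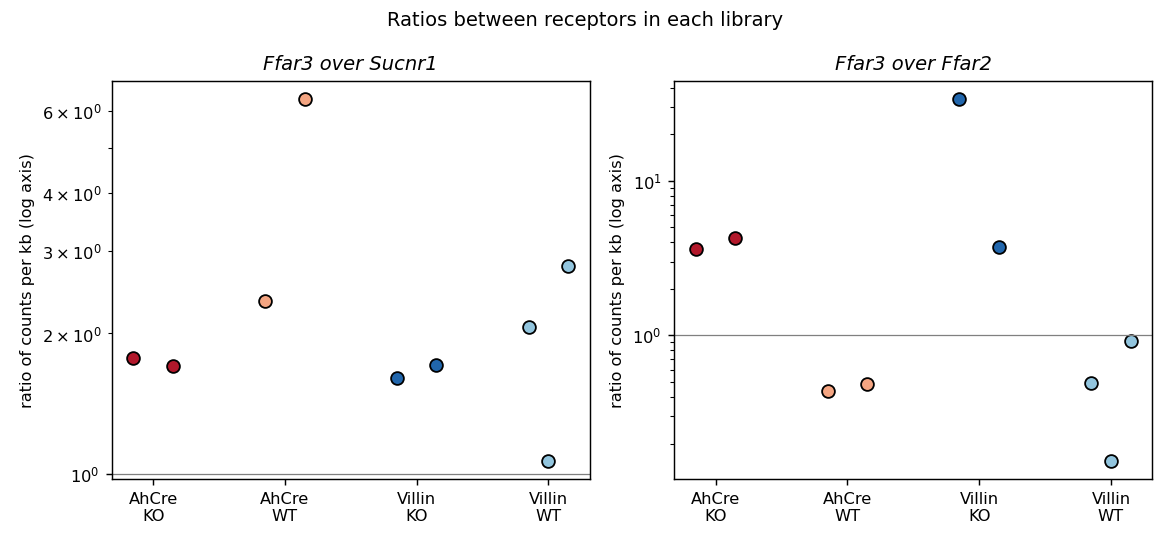
Ratios of counts per kilobase between pairs of receptors (log axis) in each library, with AhCre KO, AhCre WT, Villin KO and Villin WT from left to right and a grey line at a ratio of 1. Ffar3 over Ffar2 lies above 1 in all 4 KO libraries and below 1 in all 5 WT libraries, and Ffar3 over Sucnr1 is nearly the same in the 4 KO libraries.

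Tuft cell markers moved with Sucnr1 and Ffar3. Of 26 markers of tuft cells, all tested, 24 were higher and 0 lower in the mean of both drivers (median log2 fold change 3.24, against -0.095 over all genes tested). In Villin 24 were higher and 0 lower as well, which was 8 called without Villin KO 1 and 5 without Villin WT 1. In AhCre 0 were called and 25 were higher at an unadjusted p under 0.05, a threshold that 3.53% of all genes passed there in either direction. The largest rises on average were those of Il25, the cytokine tuft cells release (log2 fold change 4.39, adjusted p = 0.0117), Alox5, which makes leukotrienes (3.85, adjusted p = 0.00614), Avil, an actin-binding protein (3.71, adjusted p = 0.00614), and Gfi1b, a transcription factor (3.71, adjusted p = 0.0104). Ptprc and Il17rb were not called, with 1.45 and 1.83. The count of 24 was 0 without either AhCre WT library and 1 without Villin WT 1, and 20 without Villin KO 1. Fewer or more cells of a type and less or more RNA per cell cannot be told apart in RNA of whole crypts.

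The summed level of the tuft cell markers was 2321 to 2367 CPM in AhCre KO and 585 to 615 CPM in AhCre WT libraries, and 1721 to 8981 CPM in Villin KO and 449 to 641 CPM in Villin WT libraries. As a share of that sum, Sucnr1 was 0.458% and 0.549% in AhCre KO, against 0.178% and 0.0765% in AhCre WT libraries. It was 0.705% and 0.403% in Villin KO, against 0.328%, 0.143% and 0.210% in Villin WT libraries. Relative to this sum, Sucnr1 was thus higher in each KO library than in any WT library, where its share rests on 5 to 17 counts. The mean log2 fold changes of the 26 markers ranged from 1.45 to 4.39, and that of Sucnr1 was 4.39. A gene that rises more than the sum gains share of it, and how many markers did so was not counted. Ffar3 was 0.916% and 1.05% of the sum in AhCre KO, against 0.472% and 0.548% in AhCre WT libraries. It was 1.27% and 0.780% in Villin KO, against 0.765%, 0.171% and 0.661% in Villin WT libraries.

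These shares depend on the markers chosen. With Ptprc, Siglecf, Cd24a and Il17rb left out, which other cells of the crypt also express and which were set aside after their values had been seen, Sucnr1 was 1.03% and 0.688% of the sum in Villin KO, against 0.733%, 0.410% and 0.417% in Villin WT libraries. Ffar3 was then 1.87% and 1.33% in Villin KO, against 1.71%, 0.492% and 1.31% in Villin WT libraries. Both overlapped between genotypes in Villin with this shorter list and did not overlap in AhCre. The part of tuft cell number in the rise of Sucnr1 and Ffar3 was not tested.

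**Figure D4:**
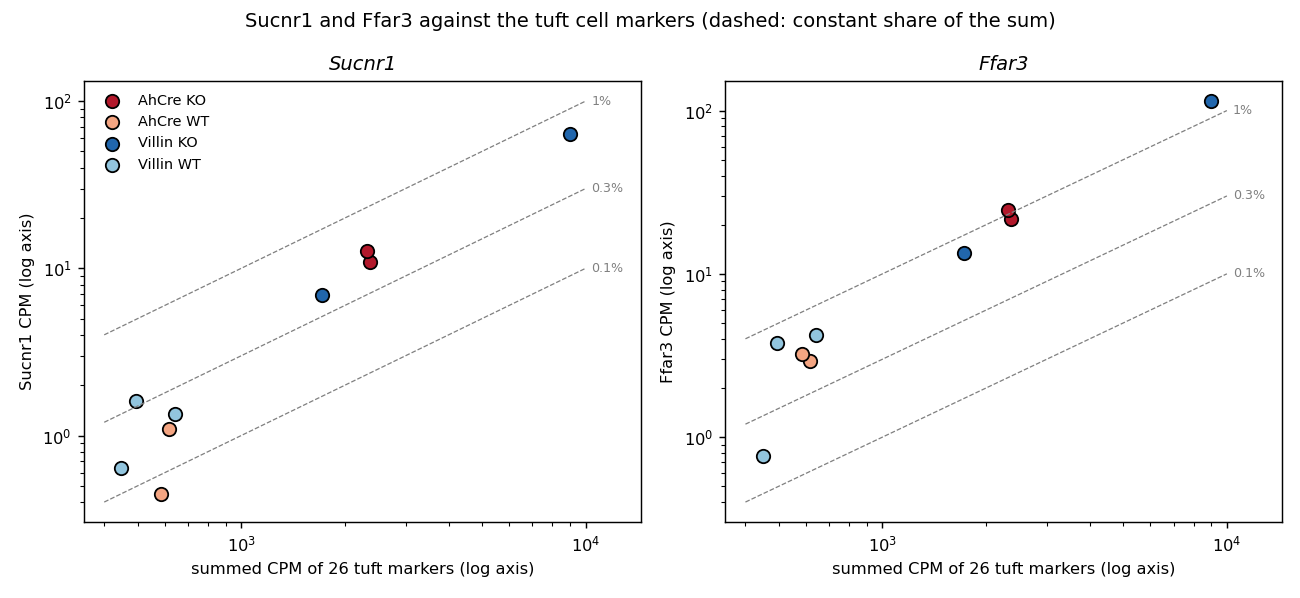
CPM of Sucnr1 and Ffar3 (y axes, log) against the summed CPM of 26 tuft cell markers (x axes, log) in the 9 libraries; dashed lines mark constant shares of the sum. KO libraries lie at the upper right, at 0.403% to 0.705% of the sum for Sucnr1, and WT libraries at the lower left, at 0.0765% to 0.328%.

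Markers of enteroendocrine cells, the other cell type known for these receptors, were not called. Of 22 tested markers 0 were called by edgeR in the mean of both drivers and 0 at an unadjusted p under 0.05, which 13.9% of all genes passed (median log2 fold change 0.0048). None of the listed markers in the tables was at 0 in all libraries. Their summed level was 704 to 836 CPM in AhCre KO and 851 to 853 CPM in AhCre WT libraries, and 949 to 1170 CPM in Villin KO and 309 to 1370 CPM in Villin WT libraries. Chgb, a granule protein, had a mean log2 fold change of 0.18 and Gip, an incretin hormone, 0.27. Of 21 tested leukocyte markers 1 was higher, Siglecf (3.68, adjusted p = 0.00959), which is on the tuft cell list too; the count was 0 without either AhCre WT library or Villin WT 1, and became 2 when Villin WT 3 was left out and to 3 when Villin KO 2 was. Their summed level was 661 to 675 CPM in AhCre KO and 489 to 526 CPM in AhCre WT libraries, and 864 to 1648 CPM in Villin KO and 555 to 2163 CPM in Villin WT libraries.

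Markers of the other cell types of the crypt were seldom called on average. In the mean of both drivers, 1 of 8 goblet cell markers was higher (Retnlb, a secreted antimicrobial protein, 4.84, adjusted p = 0.0445, not called when any library other than Villin WT 3 or Villin KO 2 was left out), and 0 of 7 Paneth cell, 0 of 6 stem and crypt, 0 of 8 enterocyte, 0 of 7 epithelial and 0 of 10 tested stromal markers were called. In Villin, where 6.21% of all genes were called, 4 of 8 enterocyte markers and 2 of 10 stromal markers were higher, and 3 of 6 stem and crypt markers were lower. Without Villin KO 1 these counts were 0, 1 and 0, and without Villin WT 1 they were 1, 4 and 0. The summed stem and crypt markers were at 439 CPM in Villin KO 1 and 1504 CPM in Villin KO 2, against 927 to 2309 CPM in Villin WT libraries. The summed enterocyte markers were at 36321 to 54504 CPM in Villin KO, against 16323 to 26944 CPM in Villin WT libraries.

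In AhCre KO the summed Paneth cell markers rose and the summed stromal and muscle markers fell, although 0 of their genes were called there by edgeR. The summed enteroendocrine, leukocyte, stem and crypt, enterocyte and epithelial markers did not overlap between genotypes in AhCre either. Such separation is common there: 23.4% of all genes tested had every AhCre KO library above every AhCre WT library, and 25.1% below. The summed Paneth cell markers were at 12596 to 13406 CPM in AhCre KO, against 6670 to 7540 CPM in AhCre WT libraries, and at 3751 to 8931 CPM in Villin KO, against 2017 to 14515 CPM in Villin WT libraries. The summed stromal and muscle markers were at 77.1 to 82.4 CPM in AhCre KO, against 165 to 171 CPM in AhCre WT libraries, and at 182 to 215 CPM in Villin KO, against 30.9 to 189 CPM in Villin WT libraries. At an unadjusted p under 0.05 in AhCre, 0 of 7 Paneth cell markers and 1 of 10 stromal markers passed. The part of any of these shifts in the levels of the 6 receptors was not tested. Without Villin KO 1 the Villin log2 fold changes of the receptors that were not called were -0.66 for Ffar2, -0.24 for Ffar4 and -0.17 for Gpr35.

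Of 34 genes of the G protein and taste cascade through which such receptors can act, 31 were tested, and 5 were higher and 0 lower on average (median log2 fold change 0.30). They were Gnat3, the alpha subunit gustducin (3.31, adjusted p = 0.00952), Trpm5, the cation channel (3.28, adjusted p = 0.00749), Rgs13, a regulator of G protein signalling (2.78, adjusted p = 0.0222), Gng13, a gamma subunit (2.33, adjusted p = 0.0457), and Plcb2, a phospholipase C (1.87, adjusted p = 0.0379). All 5 are also on the tuft cell list. In Villin, where 6.21% of all genes tested were called, 7 genes of the cascade were higher and 1 was lower. Without Villin WT 1 the cascade had 1 called gene in Villin. Leaving out Villin KO 1, which leaves 1 library in its group, lowered that count as well. In AhCre 0 of the 31 were called by edgeR, where 0.00615% of all genes were. There 8 were higher and 0 lower at an unadjusted p under 0.05, which 3.53% of all genes passed in either direction. Gnat3, not called in AhCre, averaged 6.21 ± 0.545 CPM in AhCre KO and 1.09 ± 0.356 CPM in AhCre WT crypts (SD, n = 2 each). Trpm5, not called in AhCre either, averaged 210 ± 31.2 and 43.6 ± 5.27 CPM in those 2 groups. Without either AhCre WT library or Villin WT 1 the count of 5 was 0, it was 2 without either AhCre KO library, Villin WT 2 or Villin KO 1, and it was 9 without Villin KO 2.

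Other receptors for nutrients and metabolites were mostly too low to test. Of 20 listed, 7 were tested and 0 were called by edgeR in either driver or in the mean, where 0 had an unadjusted p under 0.05 (median log2 fold change 0.06). The highest in level were Lpar5, a lysophosphatidic acid receptor (0.50, adjusted p = 0.577), and Gpr18 (0.83, adjusted p = 0.455).

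Few genes that handle the ligands were called on average. Of 12 tested genes of succinate handling 1 was higher, Slc13a2, a sodium-coupled transporter of succinate and other dicarboxylates (mean log2 fold change 1.20, adjusted p = 0.0124). It averaged 41.6 ± 5.98 CPM in AhCre KO and 32.6 ± 0.229 CPM in AhCre WT crypts (SD, n = 2 each), and 483 ± 19.97 CPM in Villin KO (SD, n = 2) and 117 ± 8.55 CPM in Villin WT crypts (SD, n = 3). Slc13a2 had a log2 fold change of 2.05 in Villin (adjusted p = 0.00499) and 0.35 in AhCre (adjusted p = 1). Of 11 genes of short-chain fatty acid handling 1 was higher, Slc16a3, a monocarboxylate transporter (mean 1.77, adjusted p = 0.0479). Slc16a3 had a log2 fold change of 3.35 in Villin and 0.18 in AhCre. In Villin 2 genes of each of these lists were called, and without Villin KO 1 it was 1 of each. In the mean of both drivers, the count of 1 of each list was 0 without Villin WT 1. That of short-chain fatty acid handling was also 0 without Villin WT 3. Neither call in the mean held when any single AhCre library was left out, which leaves 1 library in its group. That of Slc16a3 did not hold without Villin KO 1 either.

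None of 12 genes of long-chain fatty acid handling, 13 of bile acid handling and 7 tested of kynurenine handling was called on average by edgeR, with 2, 2 and 0 of them at an unadjusted p under 0.05. The highest in level were Fabp2 (0.13) and Fabp1 (0.14), which carry fatty acids, Fabp6 (-0.83) and Slc51a (0.22), which carry bile acids, and the aminotransferases Got2 (-0.08) and Kyat1 (0.16). In Villin, Acsl5 (1.70) and Dgat2 (2.49) of long-chain fatty acid handling were higher, and the count of 2 was 0 without Villin KO 1 and 1 without Villin WT 1.

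Ffar3 lies in a cluster of related receptors on chromosome 7. Ffar1, a receptor for long-chain fatty acids, is 1.21 kb from Ffar3, and Ffar2 is 30.6 kb away on its other side. Ffar1 had 36 counts summed over AhCre KO libraries and 34 over AhCre WT libraries, and 7 over Villin KO libraries and 16 over Villin WT libraries (mean log2 fold change -0.09, adjusted p = 0.971). Cd22, a B cell gene at 9.22 kb, had a mean log2 fold change of -0.10 and Mag, a myelin gene at 43.0 kb, 1.77 (adjusted p = 0.303). Ffar1, Cd22 and Mag are given as neighbours of Ffar3 and were chosen after their values were seen. Within 50 kb of any of the 6 receptors no tested gene besides Sucnr1 and Ffar3 was called by edgeR in the mean of both drivers. Aadac, 41.7 kb from Sucnr1, had a mean log2 fold change of -0.80 (adjusted p = 0.216).

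**Figure D5:**
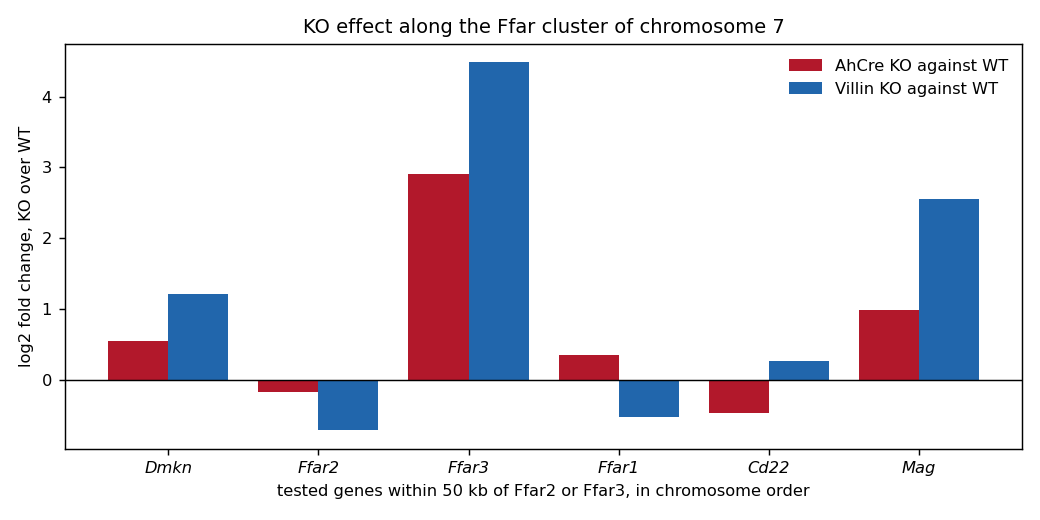
Log2 fold change of KO over WT (y axis) in AhCre and in Villin for the tested genes within 50 kb of Ffar2 or Ffar3, in chromosome order. Ffar3 has the tallest bars, 2.91 in AhCre and 4.49 in Villin, and its neighbours Ffar2 and Ffar1 lie below 0 in Villin.

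Over the 9 libraries, Sucnr1 and Ffar3 had a Pearson correlation of 0.965 on the log2 CPM scale, and Ffar2 and Ffar4 of 0.810. These correlations pool KO and WT libraries of both drivers, which differ in genotype, driver, depth and composition. The genes named next were picked as the highest among the genes tested, also for receptors that were not called. The genes most like Sucnr1 were Fyb (0.992), Chat (0.987) and Cd300lf (0.983), of which Chat, the acetylcholine-synthesising enzyme, is on the tuft cell list. Those most like Ffar3 were Mcub (0.988), Ly6g6f (0.988) and Reep5 (0.987). Ffar2 was most like Serpina1b (0.986), Runx1t1 (0.976) and Nsmce3 (0.971), and Ffar4 most like Rplp0-ps1 (0.965), Notch4 (0.963) and Slc26a1 (0.957). Gpr35 was most like Megf6 (0.986), Nono (0.975) and Msh3 (0.971).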

How the data were processed

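For each of the 9 libraries the authors deposited raw read counts by gene, which are whole numbers with no normalization. STAR 2.7, featureCounts and DESeq2 1.20 are named with mm10 or GRCm38 per the submitters' processing notes; neither their roles nor the annotation or strand setting is given there. The 55341 row names all match gene names of GENCODE M21 on GRCm38, from which coordinates and exon lengths were taken.

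The counts were fitted with edgeR 4.0.16 (R 4.3.3). filterByExpr on the 4 groups of driver and genotype (minimum count 10) left 16250 genes, TMM scaled the libraries, and all 9 libraries entered 1 quasi-likelihood fit with a mean for each group. Contrasts were the KO effect in AhCre and in Villin, their mean, and the AhCre minus the Villin effect. A gene was called where its p, adjusted over all genes tested by Benjamini-Hochberg, was under 0.05. CPM are counts over the TMM-scaled library size. No set test was run; a list is described by its count and median. Over all genes tested the median log2 fold change was -0.0048 in AhCre, -0.18 in Villin, -0.095 for the mean and 0.18 for the difference. The procedure was tested on simulated counts drawn with the same dispersion for all genes and libraries. That simulation cannot test the fit where the spread differs between drivers or libraries.

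All 6 receptors are named, with Pcgf6, up to 4 called genes of each list with the largest change (or the 2 highest in level where none was called), and the 3 genes most correlated with each tested receptor (predicted Gm-number and Rik symbols passed over). Plcb2, Ptprc, Il17rb, Acsl5 and Dgat2 were added after their values were seen. The receptors and lists were chosen with earlier results of these data known. Alternatives were DESeq2 size factors, the DESeq2 1.42.0 Wald test, limma-voom (limma 3.58.1) with sample weights, no low-count filter, at least 1 CPM in at least 4 libraries, each driver fitted alone, a replicate block, the longest transcript as length, and each library left out. A crossed block and the shorter tuft cell list were chosen after seeing the data.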

Additional observations from a re-analysis of the deposited data

How the results depend on the processing

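In the mean of both drivers 2 receptors, Sucnr1 and Ffar3, were called under every alternative run for that contrast, except that leaving out libraries gave 0 to 2 (0 without either AhCre WT library or Villin WT 1). In Villin the count of 2 was 0 with limma-voom and 1 with the crossed block, and 0 to 2 with a library left out (0 without Villin WT 1 or Villin KO 1). In AhCre the count of 0 was 2 without a low-count filter, with the DESeq2 Wald test, with limma-voom and with each driver fitted alone, and 0 to 2 with a library left out (1 without Villin KO 1, 2 without Villin KO 2). The difference between drivers gave 0 throughout. The other lists held 27 called genes in the mean, 12 with the crossed block and 0 to 43 with a library left out. In no alternative did Sucnr1 or Ffar3 change direction in a driver or in the mean. With a library left out, Ffar4 in AhCre ranged from -0.20 to 0.34, and the difference between drivers ranged from -1.85 to 1.32 for Sucnr1, -2.41 to 0.66 for Ffar3 and -0.11 to 0.90 for Gpr35; the cause was not tested.

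Over all genes, the count called in the mean was 190 as reported, 438 with the DESeq2 Wald test, 538 without a low-count filter, 137 with the replicate block and 48 with the crossed block. In AhCre it was 1 as reported, 74 with the DESeq2 Wald test, 137 without a filter, 911 with limma-voom and 1046 with the driver fitted alone. In Villin it was 1009 as reported, 1723 with the DESeq2 Wald test, 1591 without a filter, 138 with limma-voom, 259 with the driver fitted alone and 300 with the replicate block. With DESeq2 size factors the median of all genes in Villin was -0.076, against -0.18 as reported, and the direction of no tested receptor changed. Deviations of same-numbered libraries from their group means correlated at -0.107 in AhCre, and at 0.061 and -0.216 in Villin. In groups of 2 these deviations mirror each other, so the check cannot settle whether the numbers pair the samples. With the replicate block 2 receptors were called in the mean, 2 in Villin and 0 in AhCre or between drivers, and the other lists held 25. Depth limits Gpbar1, whose highest count was 6. With the longest transcript as length, neighbours swapped places in 3 groups, namely Gpr35 and Ffar2 in AhCre KO and Villin WT, and Ffar4 and Gpr35 in Villin KO.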
